A study of Mus musculus with 8 samples.

Results

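The nuclear-encoded subunits of the oxidative phosphorylation chain were followed in mouse embryonic stem cell cultures before differentiation and after embryoid bodies had received retinoic acid for 4 days. All gene symbols of the count tables that begin with Nduf, a subunit letter (a, b, c, s or v) and a digit, or are Sdha to Sdhd, or begin with Uqcr, Cox4 to Cox8 or Atp5 were taken, together with Cyc1 and Cycs, which gave 86 members out of 24421 counted symbols. By name, 35 belonged to complex I, 4 to complex II, 9 to complex III, 20 to complex IV and 15 to complex V. Cycs, the soluble electron carrier, was kept by itself, and Atp5s and Atp5sl, which carry the Atp5 name without being accepted core subunits, were kept apart. Ndufa4 and its paralogue Ndufa4l2 were placed with complex IV. The rule reads the symbols and no measured value.

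The 8 libraries were sequenced on the Oxford Nanopore MinION from cultures of the R1 mouse embryonic stem cell line. Day4 cultures were embryoid bodies, which are floating aggregates of differentiating stem cells, formed over 4 days without leukaemia inhibitory factor and then kept for 4 days with retinoic acid. Undiff is the state before retinoic acid. The study's methods describe it as stem cells kept with leukaemia inhibitory factor, while the labels name embryoid bodies as the tissue of every library, so the effects of retinoic acid, of aggregation and of the withdrawn factor cannot be told apart. The labels give the dose of retinoic acid as 2 µM in one place and as 2 mM in another. Each state had 2 biological replicates, and RNA of the duplicate samples was sequenced on both platforms: Direct RNA, in which poly(A) RNA itself passes the pore, and cDNA, in which reverse-transcribed and PCR-amplified molecules do. No genetic change or sorting is named in the labels, and a differentiating culture holds several cell types, so fewer cells of a type and less RNA per cell cannot be told apart.

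The respiratory chain passes electrons from NADH (complex I) and succinate (complex II) through ubiquinone to complex III, then by cytochrome c to complex IV, which reduces oxygen. Proton pumping by complexes I, III and IV drives ATP synthesis by complex V. Most subunits are nuclear-encoded, with a core set from mitochondrial DNA that was not analysed here. Pluripotent stem cells are known for high glycolysis, and several subunits exist as isoform pairs in which one form is typical of muscle, testis or hypoxic tissue.

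Depth and state labels were examined first. Direct RNA libraries held 283461 to 907489 reads on genes and cDNA libraries 948657 to 2088592, so that the upper limit for a gene without a read (3 reads) was 1.44 to 10.6 CPM (reads on a gene scaled to 1000000 reads on genes). These limits and all intervals below cover counting error only. Of the marker lists, 8 of 8 pluripotency genes were lower at Day4 on both platforms and 7 of 7 (Direct RNA) and 8 of 8 (cDNA) tested retinoic acid response genes were higher. The summed CPM of 6 fibroblast markers went from 5.27 to 14.4 over the Undiff libraries to 91.8 to 1108 over the Day4 libraries. Of these, Col1a1, Col1a2, Pdgfra and Postn rose on both platforms. Thy1 fell on both (means of 7.61 and 2.03 CPM by Direct RNA, 5.60 and 0.481 by cDNA). S100a4 fell in cDNA (1.53 and 0.379 CPM) and had no read in Direct RNA. The sum of 6 endoderm markers went from 0 to 8.61 up to 181 to 931, and that of 6 neural markers from 75.9 to 176 down to 21.2 to 37.2. Most of the neural sum in Undiff was Tubb3 (69.6 to 164 CPM, against 10.6 to 28.8 in Day4), and the other 5 summed to 6.32 to 19.8 CPM in Undiff and 5.78 to 20.3 in Day4. The part of such cell types in the results below was not tested.

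Sequences of members and their copies are shown first, because several members share nearly all of their coding sequence with another locus, and a read can then be counted at either. By alignment of coding sequences, 20 of 86 members had at least 1 annotated copy with 95% identity over 90% of the length. Only 3 of the 39 copies, Gm12338, Gm10012 and BC002163, were themselves rows of the count tables. Coordinates are those of mm10 and sequences run 5′ to 3′ on the gene's strand.

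Cox7c, a small complex IV subunit (chr13:86044816-86046904, minus strand, 3 exons), has the same 192 coding bases as the intronless locus Gm12338 (chr11:75599763-75599954, minus strand), which is annotated as a processed pseudogene. The shared sequence is:
Cox7c and Gm12338: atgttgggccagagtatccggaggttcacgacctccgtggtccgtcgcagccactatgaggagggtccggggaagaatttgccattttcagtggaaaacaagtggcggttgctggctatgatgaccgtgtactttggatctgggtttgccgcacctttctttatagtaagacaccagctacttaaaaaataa

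In Direct RNA, Cox7c received 11 and 13 reads in Undiff and 2 and 36 in Day4, whereas Gm12338 received 222 and 759 in Undiff and 204 and 1074 in Day4. In cDNA, Cox7c received 418, 516, 371 and 693 reads and Gm12338 1403, 2934, 4435 and 3087, in the order Undiff replicates 1 and 2, then Day4 replicates 1 and 2. Most reads of this pair of loci were thus counted at the copy in all 8 libraries, and the level of Cox7c itself cannot be read from its row.

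Ndufs5, an accessory subunit of complex I (chr4:123712710-123718202, minus strand), had 0 reads in every library. Its copy BC002163 (chr16:42955631-42955949, plus strand) had 42 and 137 reads in Undiff and 34 and 135 in Day4 by Direct RNA, and 430, 795, 751 and 683 by cDNA in the same order. Over coding positions 61 to 210, counted from the A of the start codon, the 2 loci differ at the capitals, by T81C and A105G from gene to copy:
Ndufs5: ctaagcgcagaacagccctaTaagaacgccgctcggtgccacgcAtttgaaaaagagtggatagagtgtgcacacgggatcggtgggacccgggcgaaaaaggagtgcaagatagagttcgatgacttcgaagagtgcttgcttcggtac
BC002163: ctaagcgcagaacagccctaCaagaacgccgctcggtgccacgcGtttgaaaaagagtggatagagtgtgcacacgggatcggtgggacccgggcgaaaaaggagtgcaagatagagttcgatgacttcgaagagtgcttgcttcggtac

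Atp5g1, which encodes the c subunit of the ATP synthase rotor, is called between the states below. It lies at chr11:96068852-96075670 (minus strand), and 410 of its 411 coding bases are found in the processed pseudogene Gm10039 (chr11:100361716-100362126, minus strand), which has no row. Coding positions 262 to 411 hold the single difference, G385A, in capitals:
Atp5g1: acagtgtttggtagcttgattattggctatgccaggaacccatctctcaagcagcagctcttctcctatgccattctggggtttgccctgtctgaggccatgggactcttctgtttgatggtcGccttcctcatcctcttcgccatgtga
Gm10039: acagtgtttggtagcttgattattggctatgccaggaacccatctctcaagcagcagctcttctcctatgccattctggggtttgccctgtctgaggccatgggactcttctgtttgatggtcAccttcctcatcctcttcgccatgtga

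Members with a copy had a median level of 126 CPM by Direct RNA and 351 by cDNA, against 272 and 599 CPM for the 66 members without one. Values of Cycs (4 copies), Atp5l (8 copies) and Atp5g2 (2 identical copies), all low, are uncertain for the same reason. Of the members called between states below, Atp5g1 alone has such a copy.

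Together the 86 members took 2.96% (95% Wilson interval 2.90 to 3.01) and 3.15% (3.11 to 3.19) of reads in the Undiff Direct RNA libraries, and 2.27% (2.21 to 2.32) and 3.29% (3.25 to 3.33) in the Day4 ones. In cDNA they took 6.23% (6.18 to 6.28) and 5.20% (5.17 to 5.23) in Undiff and 6.31% (6.27 to 6.35) and 4.34% (4.31 to 4.37) in Day4. The states overlapped on both platforms, and every cDNA library lay above every Direct RNA library.

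Complex II, succinate dehydrogenase, was the only one of the 5 complexes whose summed share of reads was higher in both Day4 libraries than in both Undiff libraries on both platforms. Its share was 0.0948% ± 0.0051 (SD, n = 2) in Undiff and 0.107% ± 0.0063 in Day4 by Direct RNA, a log2 ratio of 0.18. By cDNA it was 0.105% ± 0.011 in Undiff and 0.156% ± 0.0026 in Day4, a log2 ratio of 0.57. With DESeq2 size factors in place of total reads these ratios were 0.06 and 0.20 and the states overlapped on both platforms. Complex III had log2 ratios of -0.32 and -0.38, complex IV of -0.28 and -0.36, complex V of -0.25 and -0.07, and Cycs of -0.64 and -0.69, for Direct RNA and cDNA. Of these, Cycs alone was lower in both Day4 libraries on both platforms on total reads. With size factors, complex III (-0.43 and -0.74) and complex V (-0.38 and -0.42) were also lower in both Day4 libraries on both platforms, and complex IV was so in cDNA (-0.70). With TMM the Direct RNA states overlapped for complexes III and V (-0.44 and -0.39). Complex I had 0.16 and 0.13, with overlapping states, and its cDNA ratio turned to -0.21 with size factors.

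The scaling matters for these signs. On total reads the median gene was higher at Day4 by 0.11 (Direct RNA) and 0.31 (cDNA) on the log2 scale, and with size factors by -0.01 and -0.05. The sums were compared without a test, since they are scores over chosen members.

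**Figure D1:**
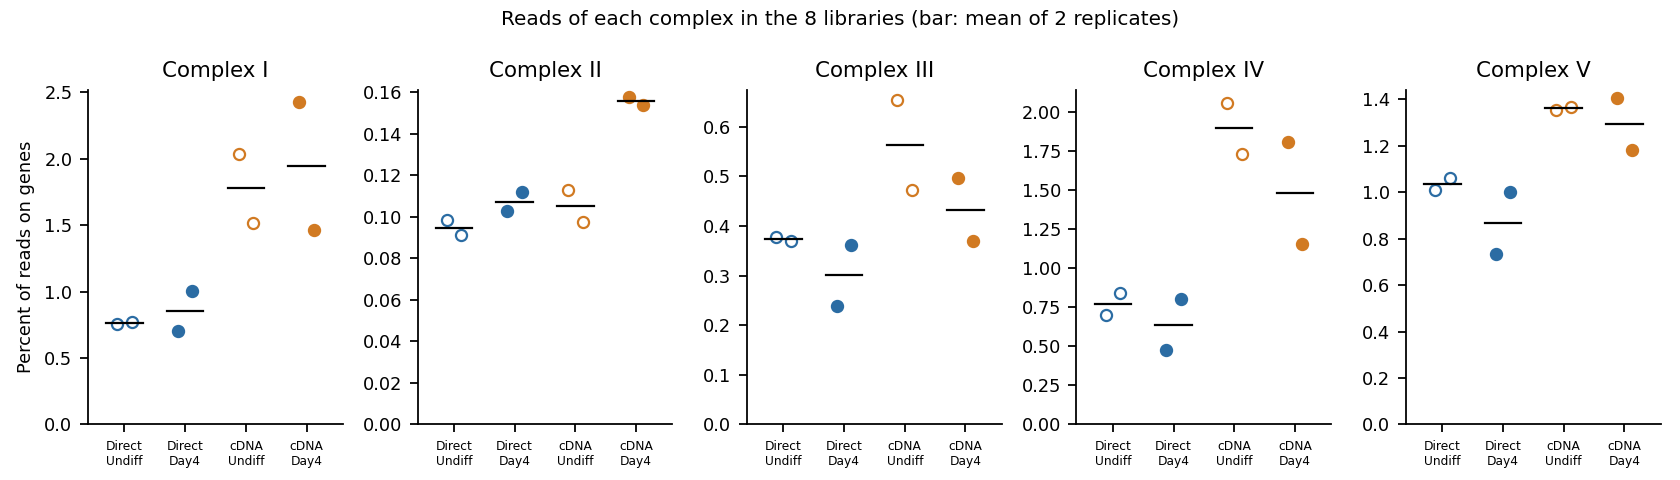
Summed share of reads (percent of reads on genes, y axis from 0) of complexes I to V in the 4 groups of platform and state. Each point is 1 library and each horizontal line the mean of 2 libraries. Complex II has both Day4 points above both Undiff points on each platform. Complexes I, IV and V take a larger share in every cDNA library than in any Direct RNA library.

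Within complexes, levels per kilobase of transcript differed widely. In Undiff Direct RNA, Cox4i1, the main isoform of the largest nuclear-encoded complex IV subunit, stood at 2341 CPM per kb, Cox8a at 1681, Atp5g3 at 1719, Atp5b, the catalytic beta subunit of ATP synthase, at 1558, and Uqcr10 at 1304. Cycs stood at 6.22 CPM per kb. Atp5g3 ranked first in complex V in all 4 groups and Sdhb first in complex II in all 4 groups. In complex IV, Cox4i1 ranked first in Direct RNA and Cox8a first in cDNA. Neighbours such as Cox8a and Cox4i1 in Day4 cDNA, at 4404 and 4316 CPM per kb, did not differ beyond the spread of the replicates.

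The state comparison asked which members differed between Undiff and Day4, separately on each platform. A member was called changed when its Benjamini-Hochberg adjusted p did not exceed 0.05, its fold change reached 1 on the log2 scale in either direction, and its mean normalised count reached 5. In Direct RNA, 0 of 78 tested members were higher at Day4 and 3 were lower, where 9.54% and 7.67% of 9646 tested genes were called higher and lower. In cDNA, 0 of 82 were higher and 5 were lower, where 8.69% and 9.24% of 10271 genes were called. At an unadjusted p of at most 0.05, 9 and 13 members passed, where 30.7% and 31.2% of all tested genes did.

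By edgeR, 1 member was higher and 2 lower in Direct RNA (backgrounds of 20.6% and 14.9%), and 0 were higher and 5 lower in cDNA (16.4% and 14.3%). The median log2 fold change of members was -0.04 in Direct RNA and -0.29 in cDNA, beside 0.03 and 0.00 over all tested genes. By complex, the medians in Direct RNA and cDNA were 0.08 and -0.03 for complex I, -0.01 and 0.37 for II, -0.49 and -0.57 for III, -0.24 and -0.64 for IV and -0.18 and -0.36 for V. No complex I subunit was called in either direction on either platform, by DESeq2 (34 tested on each) or by edgeR (33 in Direct RNA and 34 in cDNA). At an unadjusted p of at most 0.05, 0 complex I subunits passed in Direct RNA and 2 in cDNA, beside the same shares of all genes.

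**Figure D2:**
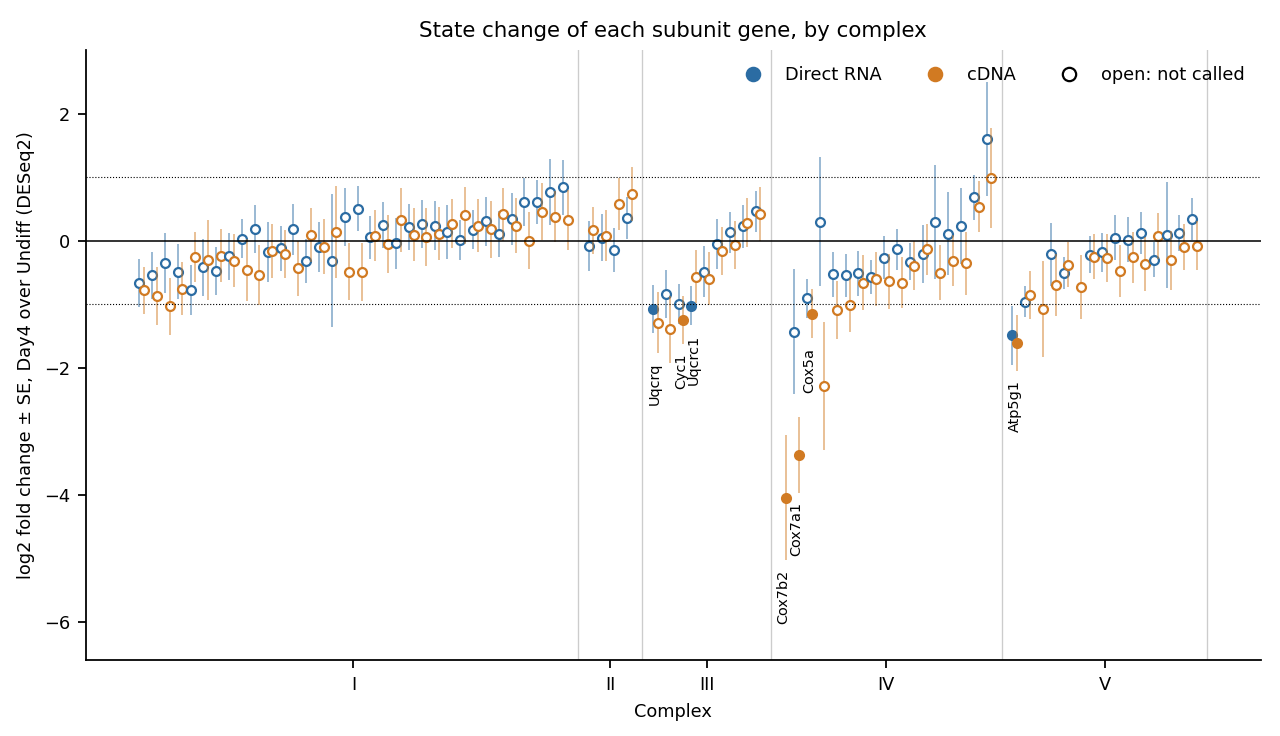
log2 fold change (Day4 over Undiff, DESeq2) of tested members of complexes I to V in Direct RNA and cDNA, grouped by complex on the x axis, with standard errors as bars, dotted lines at the fold threshold and filled points for called members. Complex I members lie on both sides of 0, and members past the call thresholds are in complexes III, IV and V, all below 0.

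Atp5g1 of complex V was the one member called on both platforms. In Direct RNA its levels were 184 and 156 CPM in Undiff and 49.4 and 73.2 CPM in Day4, and in cDNA 790 and 579 CPM in Undiff and 342 and 201 CPM in Day4. The states did not overlap on either platform, and the change on the log2 scale was -1.49 (SE 0.47, adjusted p = 0.0169) by Direct RNA, beside -1.61 (SE 0.44, adjusted p = 0.00418) by cDNA. A fit without 1 library leaves a lone library on one side, which is assumed to vary like the other group. The Direct RNA call was lost without any one of the 4 libraries (-1.79 to -1.18, adjusted p 0.14 to 0.46) and after thinning all libraries to the smallest (adjusted p = 0.15), and the cDNA call without Undiff replicate 1 or Day4 replicate 2 (adjusted p of up to 0.30).

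Uqcrq, a small subunit of complex III, was called in Direct RNA. It had 482 and 504 CPM in Undiff and 155 and 332 CPM in Day4, a log2 change of -1.07 (SE 0.37, adjusted p = 0.0409), and in cDNA 1775 and 883 CPM against 872 and 449 CPM (-1.29, SE 0.49, adjusted p = 0.0656). The states did not overlap on either platform, but the lower cDNA Undiff value and the higher Day4 value were close. Without Undiff replicate 1, Undiff replicate 2 or Day4 replicate 1 the Direct RNA call was lost (adjusted p of up to 0.67). It was also lost with TMM factors, on total reads, with at least 10 reads in every library and after thinning (adjusted p 0.058 to 0.29).

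Uqcrc1, a core protein of complex III, was called in Direct RNA at 634 and 586 CPM in Undiff against 286 and 350 CPM in Day4, a log2 change of -1.02 (SE 0.30, adjusted p = 0.0101). In cDNA its levels overlapped, at 173 and 321 CPM against 203 and 207 CPM (-0.57, SE 0.42, adjusted p = 0.53). The Direct RNA call was lost without any one library (adjusted p 0.061 to 0.44), and by edgeR, on total reads and under a filter of 10 reads per library, where the fold fell short (-0.97, -0.92 and -0.85).

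Cyc1, the haem-bearing cytochrome c1 of complex III, was called in cDNA at 413 and 391 CPM in Undiff against 205 and 217 CPM in Day4, a log2 change of -1.24 (SE 0.38, adjusted p = 0.0132). In Direct RNA it had 583 and 476 CPM against 250 and 310 CPM, and -0.99 (SE 0.32, adjusted p = 0.0199) fell just short of the fold threshold. The states were separate on both platforms. The cDNA call was lost without any one library (-1.35 to -1.13, adjusted p 0.13 to 0.33), after thinning (0.15) and on total reads (0.090), and thinning brought the Direct RNA change past both thresholds (-1.03, adjusted p = 0.044).

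Cox5a, a complex IV subunit, was also called in cDNA only, at 1255 and 1283 CPM in Undiff against 803 and 593 CPM in Day4 (-1.15, SE 0.39, adjusted p = 0.0296). In Direct RNA it had 786 and 948 CPM against 406 and 578 CPM, and passed the adjusted p but not the fold threshold (-0.91, SE 0.30, adjusted p = 0.0295). The states were again separate on both platforms. The cDNA call was lost without any one library (adjusted p 0.062 to 0.61), with at least 10 reads in every library (0.055), after thinning (0.12) and on total reads (0.12). Atp5b likewise passed the p threshold alone in Direct RNA, at -0.95 (SE 0.24, adjusted p = 0.0012).

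Cox7a1, the muscle-type isoform of complex IV subunit 7a, was the only member whose state call held without each library in turn. In cDNA it had 171 and 60.3 CPM in Undiff and 14.4 and 11.6 CPM in Day4, a log2 change of -3.37 (SE 0.59, adjusted p = 7.18e-07), and it was called in 4 of 4 fits that left out 1 library (-3.96 to -2.40, adjusted p of up to 0.028). In Direct RNA, 10 and 20 reads in Undiff and 1 and 9 in Day4 gave -1.43 (SE 0.98, adjusted p = 0.48). The summed CPM of 12 muscle markers went from 45.2 to 103 over the Undiff libraries to 138 to 254 over the Day4 libraries, with Nppa at 0 in all 8. In cDNA, Tnni1 was the 1 marker of 5 tested that was called (mean 3.21 CPM in Undiff and 75.5 in Day4), while Des had means of 43.2 and 30.5 CPM. In Direct RNA, 2 of 3 tested were called higher, among them Des (6 and 17 reads in Undiff, 34 and 44 in Day4). Their part in the result was not tested.

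Cox7b2, the testis-type isoform of subunit 7b, had 20 and 32 reads in Undiff cDNA and 2 and 1 in Day4 cDNA. With the reads of both replicates pooled, the ratio of Undiff to Day4 per read on genes was 19.4. Its exact interval of 6.27 to 97.0 covers counting error and not the spread between replicates. The DESeq2 fit gave an adjusted p of 0.000919. The call was lost without Undiff replicate 1 or Day4 replicate 2 (adjusted p of up to 0.19) and after thinning (0.10). In Direct RNA it had 1 and 12 reads in Undiff and 0 in both Day4 libraries, where 3 reads would be 10.6 and 4.07 CPM, so no fold was taken. The summed CPM of 8 germ cell markers went from 25.9 to 77.5 over the Undiff libraries to 0 to 12.5 over the Day4 libraries, with Prm1, Prm2 and Tnp1 at 0 in all 8. In cDNA, where Cox7b2 was called, 0 of 4 tested markers were called, and Dazl had means of 4.02 CPM in Undiff and 3.92 in Day4. In Direct RNA the 1 marker tested, Ddx4, was called lower (means of 30.1 and 0.678 CPM). Their part in the result was not tested.

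**Figure D3:**
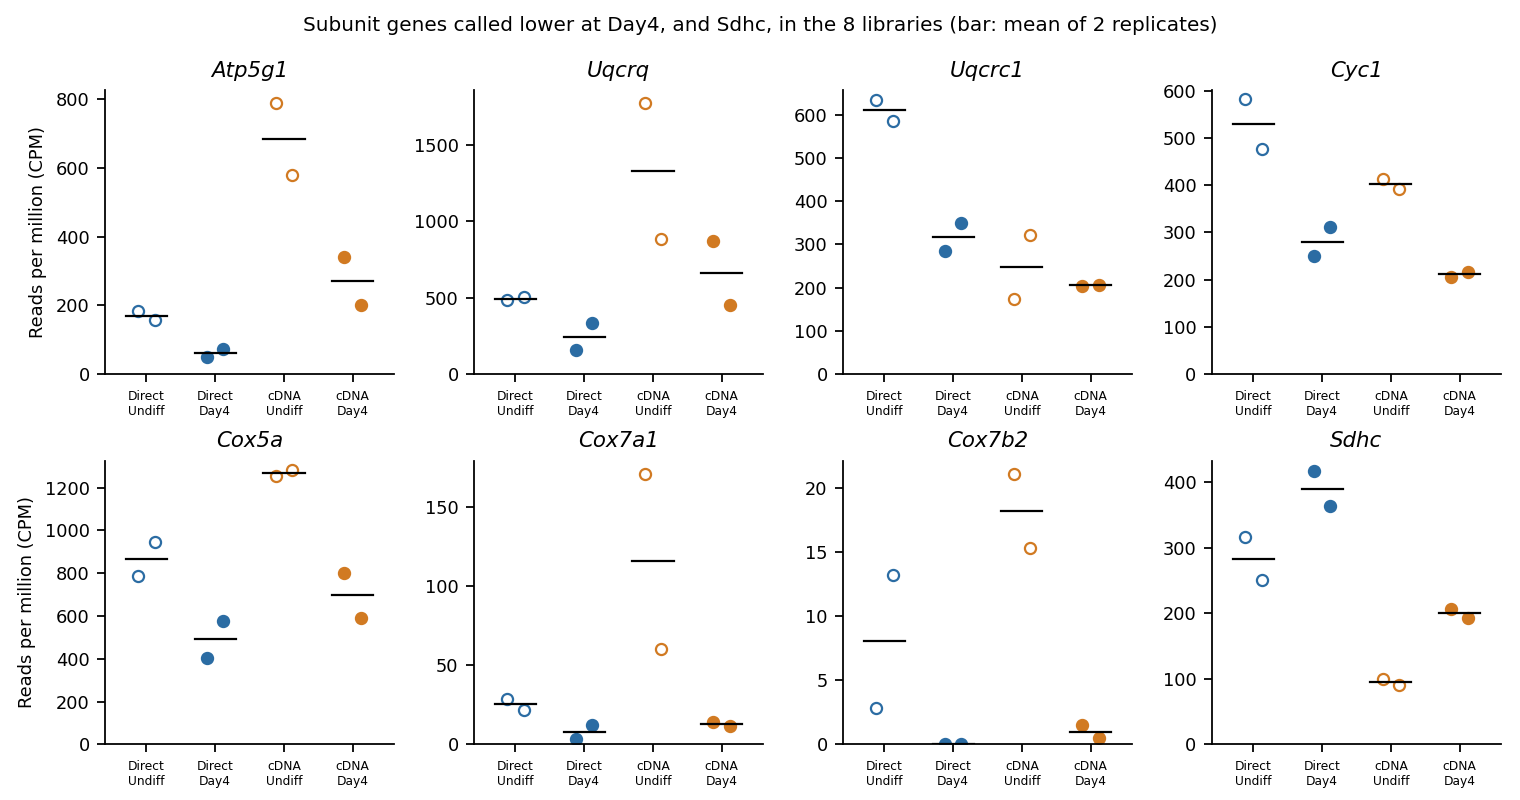
CPM on total reads of the 7 members called between states by DESeq2, with Sdhc of complex II added after its values were seen, by platform and state on the x axis. Each point is 1 library and each line the mean of 2; both Day4 points of Atp5g1 lie below both Undiff points on each platform, and those of Sdhc lie above.

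Non-overlap of the states was counted as a description. In Direct RNA, 14 of 78 members were higher in both Day4 libraries and 18 lower, where 37.3% and 30.3% of all tested genes were. In cDNA, 22 of 82 were higher and 15 lower, where 43.1% and 23.2% of genes were. On both platforms, 9 members were higher (Atp5c1, Cox7a2l, Ndufa10, Ndufb11, Ndufb8, Ndufs3, Sdhc, Uqcrc2 and Uqcrh) and 9 were lower (Atp5b, Atp5g1, Cox5a, Cox7a1, Cyc1, Cycs, Ndufb10, Ndufs6 and Uqcrq), where 29.9% and 17.9% of 8720 genes were. With size factors the split was 2 higher (Cox7a2l and Sdhc) and 13 lower, where 24.5% and 25.5% of genes were. Sdhc, a membrane anchor of complex II, had 316 and 250 CPM in Undiff and 416 and 363 CPM in Day4 by Direct RNA, and 100 and 90.5 against 207 and 193 CPM by cDNA. It was not called on either platform (log2 fold changes of 0.36, SE 0.32, and 0.74, SE 0.42).

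The other complex II subunits showed no call either. Sdha, the flavoprotein that oxidises succinate, had log2 fold changes of -0.14 (SE 0.35) in Direct RNA and 0.58 (SE 0.41) in cDNA. Sdhb, the iron-sulphur subunit, had 0.05 (SE 0.37) and 0.08 (SE 0.40), and Sdhd, the second anchor, -0.08 (SE 0.39) and 0.17 (SE 0.37). In cDNA all 4 subunits were higher in both Day4 libraries on total reads, as 43.1% of all genes were, and in Direct RNA only Sdhc was, as 37.3% of genes were. With size factors the sum over the 4 overlapped between states on both platforms, and with TMM it overlapped in Direct RNA and stayed higher in both Day4 libraries in cDNA (0.30).

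Cytochrome c, Cycs, had 7 and 17 reads in Undiff and 4 and 8 in Day4 by Direct RNA, and 24 and 60 against 15 and 46 by cDNA. It was lower in CPM at Day4 in both, with log2 fold changes of -0.67 (SE 0.96) and -0.98 (SE 0.64) that were not called. Its copy Gm10053 has the same coding sequence and no row.

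Isoform use was compared within each library as the share of an isoform in its set, which the total reads do not affect. Among the 3 genes for the c subunit, Atp5g1 took 12.8% (Wilson interval 10.2 to 16.0) and 11.4% (9.76 to 13.3) in Undiff Direct RNA and 5.36% (3.22 to 8.80) and 5.01% (3.86 to 6.48) in Day4. In cDNA its share was 31.3% (29.5 to 33.2) and 25.1% (23.9 to 26.3) in Undiff and 15.5% (14.3 to 16.9) and 10.3% (9.40 to 11.3) in Day4. Atp5g3 took most of the rest, and Atp5g2 stayed under 1% in each library. The Day4 share was lower on both platforms, and the cDNA share was above the Direct RNA share of the same state.

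Cox7a2l, which encodes the supercomplex assembly factor SCAF1, took 24.1% (19.4 to 29.5) and 23.1% (20.3 to 26.1) of its set with Cox7a1 and Cox7a2 in Undiff Direct RNA and 38.3% (32.0 to 45.1) and 34.5% (31.4 to 37.8) in Day4. In cDNA it took 4.87% (4.08 to 5.82) and 7.14% (6.42 to 7.94) in Undiff and 11.9% (10.7 to 13.1) and 15.3% (14.1 to 16.6) in Day4. Its own log2 fold changes were 0.68 (SE 0.36, adjusted p = 0.26) and 0.54 (SE 0.40, adjusted p = 0.54), so the member was not called. Its processed pseudogene Gm6969 holds 99.7% of its coding bases and has no row, so these shares carry the same uncertainty. Cox7a1 took 2.49% to 6.86% of the set over the 4 Undiff libraries and 0.485% to 1.06% over the 4 Day4 libraries.

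Cox4i2, the hypoxia-associated isoform of subunit 4, took 1.20% (0.581 to 2.45) and 0.180% (0.0614 to 0.529) of the Cox4i1 and Cox4i2 reads in Undiff Direct RNA and 2.95% (1.56 to 5.51) and 2.96% (2.11 to 4.12) in Day4, from 7, 3, 9 and 33 reads. In cDNA it took 0.499% (0.323 to 0.769) and 0.113% (0.0597 to 0.216) against 1.08% (0.841 to 1.39) and 0.80% (0.583 to 1.10). DESeq2 gave log2 fold changes of 1.60 (SE 0.90, adjusted p = 0.32) and 0.99 (SE 0.79, adjusted p = 0.58), and edgeR called the Direct RNA change (2.12, adjusted p = 0.0158). Without 1 library each, the DESeq2 values spanned 0.72 to 2.68 (Direct RNA) and 0.13 to 2.34 (cDNA). Cox6a2, the muscle form of subunit 6a, had no read in Direct RNA and 0, 1, 2 and 1 reads in cDNA, and Cox8b had none in any library. Cox6b2, a testis form, took 5.88% to 13.5% of its set with Cox6b1 in the 8 libraries, with overlapping states.

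**Figure D4:**
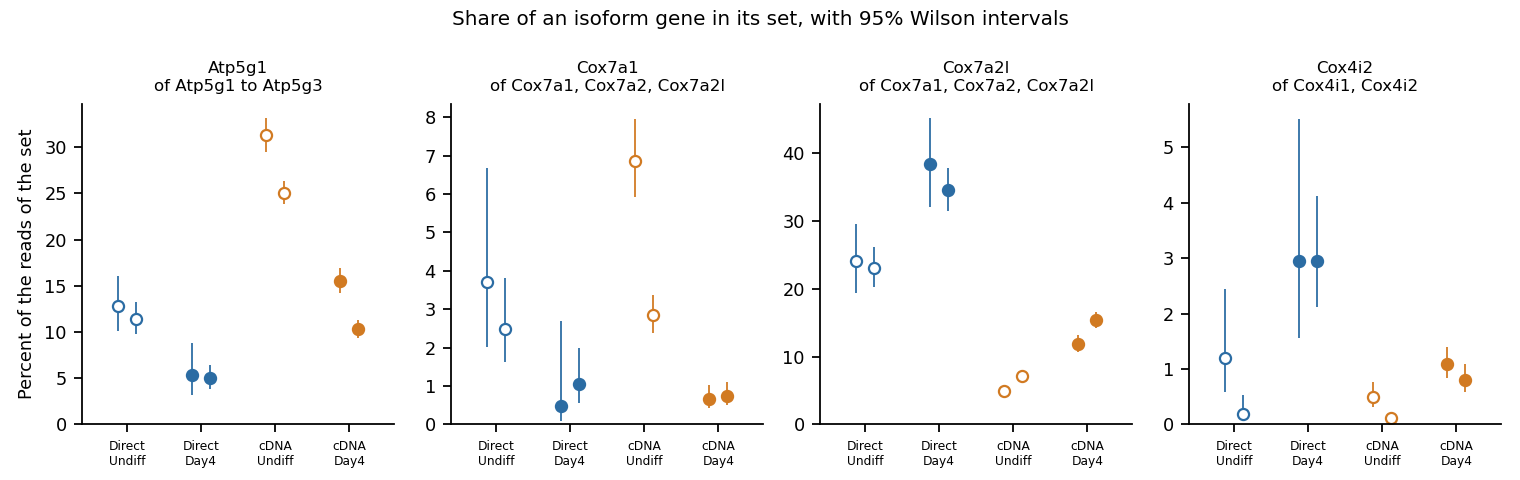
Share (percent of reads of the set) of selected isoforms in each library, with 95% Wilson intervals as bars. Atp5g1 and Cox7a1 have lower shares and Cox7a2l has higher shares in the Day4 libraries of both platforms.

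Whether the state change differed between platforms was tested by the interaction of platform and state over all 8 libraries. Of 84 tested members 0 passed an adjusted p of 0.05, where 0.0116% of 17267 genes (2 genes) did. At an unadjusted p of 0.05, 0 members passed by DESeq2 and 2 by edgeR (Cox7a1 and Ndufa4l2), where 0.932% and 3.03% of all tested genes did, and edgeR called 0 after adjustment. The term for Atp5g1 was -0.13 (SE 0.63) and that for Cox7a1, called in cDNA alone, -1.99 (SE 1.05), with adjusted p = 1.00 for both. No difference between platforms was detected with 2 libraries a group, and these standard errors allow differences of more than 1 log2 unit.

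The platforms themselves were compared over all 8 libraries with state as a term. With size factors, 62 of 82 members were higher in cDNA and 2 lower, where 24.7% and 26.6% of 10426 genes were. By complex, 29 of 34 in complex I, 2 of 4 in II, 4 of 9 in III, 12 of 17 in IV and 13 of 15 in V were higher in cDNA, with median log2 differences of 1.88, 0.89, 0.83, 1.89 and 1.62. On total reads, the counts were 37 higher and 3 lower, where 10.7% and 41.5% of all tested genes were, since this scaling moves the median gene from -0.02 to -0.76.

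The largest differences by row were those of Atp5l, the g subunit of ATP synthase (4.50, SE 0.49, adjusted p = 1.9e-18), Cox7c (4.25, SE 0.44) and Ndufa5 (3.36, SE 0.31). Atp5l had 3 to 6 reads in each Direct RNA library and 146 to 188 in each cDNA library, and Atp5l has near-identical copies. The Cox7c value is that of its own row only, and Gm12338, with the same coding sequence and most of the reads, differed by 1.80 (SE 0.34). Among the members lower in cDNA was Ndufs1, a core subunit of complex I (-1.31, SE 0.33, adjusted p = 0.000419). Exons of Ndufs1 overlap those of Eef1b2 and Ino80dos on the opposite strand. Direct RNA was counted by strand and the strand setting for cDNA is not given, so this difference is uncertain. The part of the overlap was not tested. Ndufs1 had 164, 148, 169 and 86.8 CPM in Direct RNA and 16.9, 48.4, 22.8 and 43.8 CPM in cDNA, in the order Undiff replicates 1 and 2, then Day4 replicates 1 and 2, so the platforms did not overlap.

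Transcript length moved with this difference. Of 55 members under 1000 bases, 48 were higher in cDNA and 0 lower, where 63.7% and 7.43% of 983 genes of that length were. Of 21 members of 1000 to 2000 bases, 12 were higher and 1 lower, where 35.0% and 16.0% of 2615 genes were. Of 6 members of at least 2000 bases, 2 were higher and 1 lower, where 14.9% and 33.5% of 6797 genes were. The median log2 differences of members in these classes were 1.94, 1.57 and 0.07, beside 1.52, 0.65 and -0.49 for all genes. The part of length in the difference was not tested further.

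**Figure D5:**
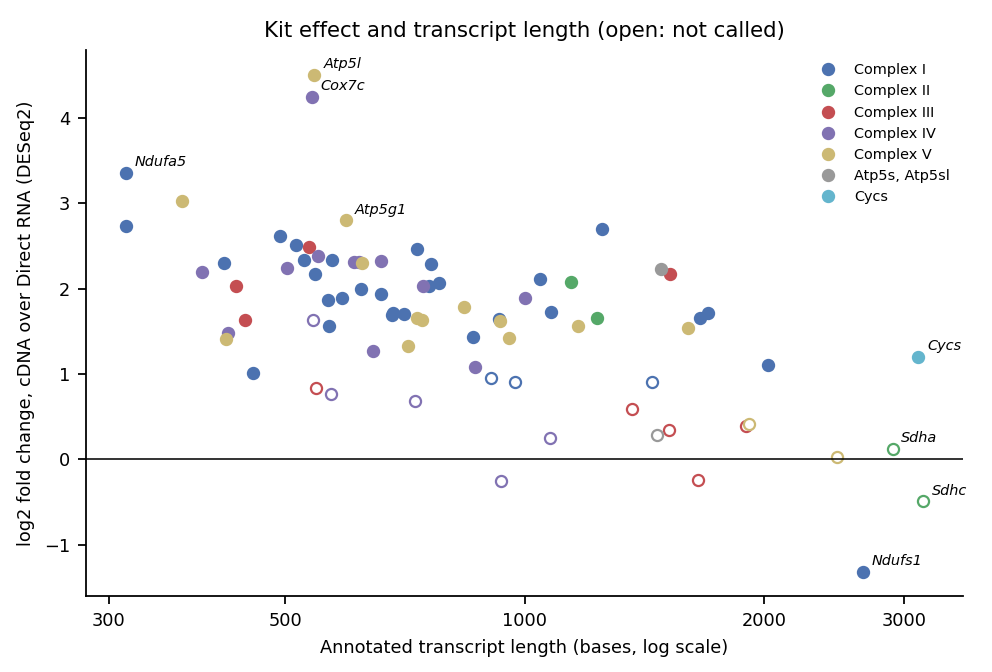
log2 difference between platforms (cDNA over Direct RNA, DESeq2) of members against transcript length (1 called member is not drawn) in bases on a log axis, coloured by complex, with open points for members not called. Members under 1000 bases lie mostly above 0, and Ndufs1, of over 2000 bases, lies below 0 as a called member.

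The promoters of the members were searched for 4 motifs in the 300 bases from 250 upstream to 50 downstream of the RefSeq start (GRCm38.p6), on both strands. Of 86 members, 70 matched by symbol. The NRF1 motif GCGCATGC, for a factor known to regulate respiratory genes, was found in 11 members (15.7%, against 3.05% of 27025 genes), the YY1 motif AAGATGGC in 11 (15.7% against 3.19%), the ETS motif CCGGAAGT in 5 (7.1% against 4.31%) and the ERR motif TCAAGGTCA in 2 (2.9% against 0.47%). The NRF1 motif on the other strand, GCATGCGC, can overlap it. Over all 32851 promoters of this length the shares were 2.71%, 2.75%, 3.89% and 0.42%. These are letter matches and not sites. Promoter stretches of a complex II subunit, of the electron carrier and of a complex I subunit, with the match in capitals, are shown as examples from different parts of the chain, with the match 54 to 60 bases before the start. Over the 9 members with a match upstream of the start, it lay 8 to 240 bases before it:
Sdhb, chr4:140961181-140961260, plus strand: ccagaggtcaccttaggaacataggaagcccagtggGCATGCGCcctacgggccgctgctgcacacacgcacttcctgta
Cycs, chr6:50566586-50566665, minus strand: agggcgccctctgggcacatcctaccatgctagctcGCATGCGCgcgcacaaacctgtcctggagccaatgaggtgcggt
Ndufa11, chr17:56717666-56717745, plus strand: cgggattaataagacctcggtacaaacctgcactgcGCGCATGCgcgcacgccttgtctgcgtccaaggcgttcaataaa

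Other genes of the pathway were taken as lists. Of the assembly factors, none of 14 tested for complex I, 4 for complex II or 3 for complex V was called in either state test. For complex III none of 5 (Direct RNA) or 6 (cDNA) was called. For complex IV, 0 of 16 were called in Direct RNA and 2 of 16 in cDNA. These were Cox17, a copper chaperone (-1.58, SE 0.42, adjusted p = 0.00294), lower at Day4, and Cox20 (1.75, SE 0.49, adjusted p = 0.00508), higher at Day4. The Cox17 call was lost without Undiff replicate 1 or Day4 replicate 2, and that of Cox20 was kept only without Day4 replicate 2. Of 6 subunits that the symbol rule missed, Usmg5, a small ATP synthase subunit, was lower in cDNA (-1.73, SE 0.55, adjusted p = 0.0191), a call kept in 1 of 4 fits without a library.

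Of the regulators of mitochondrial genes, 12 were tested in Direct RNA and 11 in cDNA, and Esrrb alone was called. It was lower at Day4 in both (-5.73, SE 0.64, and -4.93, SE 0.75), and it also stands in the pluripotency list. The Direct RNA call held without each library, and the cDNA call was lost without either Undiff library (-6.38 to -2.42 over the 4 fits, adjusted p of up to 0.63). Esrra, the related receptor known for its respiratory targets, had 3 and 17 reads in Undiff and 8 and 17 in Day4 by Direct RNA and 0 reads in all 4 cDNA libraries, where 3 reads would be 1.44 to 3.16 CPM.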

How the data were processed

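Of the 8 Oxford Nanopore libraries, 4 were Direct RNA (500 ng poly(A) RNA) and 4 cDNA (50 ng). The authors trimmed adapters, aligned reads to mm10 with minimap2 and deposited read counts per gene from htseq-count, strand-specific for Direct RNA. For cDNA the strand setting is not given in the sources used here, so 26 members that overlap an exon on the opposite strand are uncertain there, and 5 overlap one on the same strand. The 5 counter rows of each file (38.1% to 61.7% of its total, 18.5% to 28.0% for low mapping quality) were left out.

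CPM is reads on a gene scaled to 1000000 reads on genes. State changes were tested for each platform, and platform and interaction over all 8 libraries, with DESeq2 1.42.0 (shrunken fold changes except for the interaction, no Cook's or independent filtering, p adjusted over all genes with a read) in R 4.3.3. edgeR 4.0.16, other scalings, a filter of 10 reads, thinning to 283461 reads, a replicate block and leaving out each library were alternatives. The scripts were tested on simulated data. Replicates differed by more than sampling noise (chi-square per degree of freedom 2.68 to 14.9). Copies were found with BLAST 2.17.0 and GENCODE M21 coding sequences; all 86 members matched GENCODE.

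Named were all members called by state or interaction, the 3 highest and 3 lowest mean state changes (members with a mean count of 5 in both platforms), the 3 highest and 3 lowest platform effects among called members, isoform sets, complex II and the cytochromes. The members and lists were chosen with earlier results of these data known. Of the named members, 1 is not reported here.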

Additional observations from a re-analysis of the deposited data

Results flagged for a closer look

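Atp5f1, the b subunit of the ATP synthase stalk, was lower in both Day4 libraries in Direct RNA (738 and 732 CPM in Undiff, 600 and 678 CPM in Day4) and higher in both in cDNA (1066 and 1008 CPM against 1340 and 1397 CPM). It stands out because the CPM values of the 2 states separate in opposite directions on the 2 platforms, on total reads, where the median gene is itself higher at Day4 by 0.31 (log2) in cDNA. Neither change passed the test. The DESeq2 log2 fold changes were -0.299 (SE 0.27, adjusted p = 0.67) and 0.0722 (SE 0.36, adjusted p = 0.95). The interaction of platform and state for this gene was not called, with adjusted p = 1.00. Atp5f1 has a near-identical copy, Gm12231, without a row. Exons of Atp5f1 also overlap those of Wdr77 and Gm42890 on the opposite strand. Direct RNA was counted by strand, and the strand setting for cDNA is not given. The part of the copy and that of the overlap were not tested.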

How the results depend on the processing

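Calls rested on 2 libraries a group. The lower count in Direct RNA was 1 under a filter of 10 reads per library (7.58% of all genes) and 1 on total reads (6.60%), and the higher count was 1 by edgeR. The lower count in cDNA was 3 with at least 10 reads (9.10% of all genes), 2 after thinning (4.56%), 3 on total reads (6.34%) and 10 with the replicate block. On total reads, a scaling chosen after the data were seen, the count higher in cDNA than in Direct RNA was 37. Leaving out each library gave 0 to 4 lower members in Direct RNA (0 without Undiff replicate 1, Undiff replicate 2 or Day4 replicate 1, 4 without Day4 replicate 2) and 1 to 5 in cDNA (1 without Undiff replicate 1 or Day4 replicate 2). Each fit without a library leaves a lone library on one side, and its share of all genes called is not given here. The leave-one-out counts therefore show nothing particular to the members. With size factors, non-overlapping members were 7 higher and 21 lower of 78 in Direct RNA, where 33.6% and 34.2% of genes were. In cDNA they were 4 higher and 23 lower of 82, where 33.4% and 33.3% of genes were.

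The log2 ratios of complex sums moved with the scaling. With size factors and with TMM they were 0.0563 and 0.0374 for complex II in Direct RNA, 0.199 and 0.303 for complex II in cDNA and -0.42 and -0.327 for complex V in cDNA, and with size factors -0.737 for complex III in cDNA. Without Sdhb, its most abundant member, complex II in cDNA was 0.722. Without 1 library each, Direct RNA ratios ranged from -0.12 to 0.391 for complex I, -0.646 to -0.047 for III, -0.70 to 0.0502 for IV, -0.498 to -0.0463 for V and -0.84 to -0.46 for Cycs. The cDNA ratios ranged from -0.276 to 0.452 for complex I, 0.465 to 0.679 for II, -0.607 to -0.123 for III, -0.717 to -0.0691 for IV, -0.203 to 0.0473 for V and -1.25 to -0.287 for Cycs. Small platform effects changed sign. Cox7a2l went to -0.152 with at least 10 reads, -0.0824 after thinning and -0.489 on total reads, Cyc1 to -0.0485 with at least 10 reads and -0.406 on total reads, and Cox4i2 to -0.0614 on total reads. The cause was not tested.

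The sources do not say that same-numbered libraries come from one culture, across states or platforms. Their deviations correlated at 0.21 (Direct RNA) and 0.50 (cDNA) between states over 1395 genes, and at 0.12 and -0.42 between platforms. With the replicate block, lower members were 2 of 78 in Direct RNA (4.02% of all genes) and 10 of 82 in cDNA (7.57% of all genes). On either platform 0 members were called higher, where 4.72% and 5.81% of all genes were, and 0 for the interaction. The platform test gave 61 higher and 2 lower under the block, beside 62 and 2 of 82 without it. The share of all genes under the block is not given here, so these counts show nothing particular to the members. Under the block Atp5g1 was no longer called in Direct RNA (-1.49, adjusted p = 0.13), and Uqcrq was called in cDNA (-1.31, adjusted p = 9.8e-05). With the Day4 numbers crossed, a pairing chosen after the data were seen, the platform test gave 62 higher and 2 lower. For these counts, too, the share of all genes is not given. The 3 reads that set the limit of detection are 1.44 to 10.6 CPM, so isoforms such as Cox6a2 and Cox8b lie under what these depths can show.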
